A study of Mus musculus with 4 samples.

Results

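Alpha-defensins are small antimicrobial peptides, and 10 of the genes that encode them in the mouse are described here: Defa5, Defa20, Defa21, Defa22, Defa24, Defa29, Defa30, Defa34, Defa35 and Defa36. They were taken as a named list, without a threshold on expression, and make up 10 of the 22 features whose symbol begins with Defa among 32285 features in the count tables. Their levels are given in Paneth cells, defined as barcodes in which all Defa genes plus Lyz1, the lysozyme gene of Paneth cells, held 20% or more of the UMIs (unique molecular identifiers, each standing for 1 captured RNA molecule), in all other cells, and in barcodes under 1000 UMIs.

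Paneth cells sit at the base of the crypts of the small intestine, between the stem cells, and release granules filled with alpha-defensins, lysozyme and other antimicrobial proteins. Mouse alpha-defensins, also called cryptdins, are made as a longer proform that the metalloprotease Mmp7 cuts, and the mature peptide is held in shape by disulfide bonds between its cysteines. In mice, Wnt signalling acting through TCF factors and beta-catenin is known to drive alpha-defensin promoters. The genes lie side by side as close copies, so a short read can match more than one of them.

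The data are 4 single-cell RNA-seq libraries of small intestinal epithelial cells from mice aged 25 weeks, sorted by flow cytometry after staining for CD326, an epithelial surface protein, and for the blood and vessel markers CD45, TER-119 and CD31. Mutant 1 and mutant 2 came from mice with the G5081A point mutation in TrnA, a gene of the mitochondrial genome, at mutation loads of 77% and 81% per the labels. Wild type 1 and wild type 2 came from wild type mice. Mutant 1 and wild type 1 form set A, with no sex in their titles, and mutant 2 and wild type 2 form set B, titled male and counted with a later Cell Ranger version. The labels do not say that the libraries of a genotype came from separate animals, so each p-value measures only the spread between these libraries. Each library held 5974 to 13805 barcodes and 99772712 to 127796409 UMIs. Acute colitis is named in the title of the series, whereas none of the sample labels gives such a treatment.

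The genes lie within chr8:21025545-21735471 (mm10, GENCODE vM21), and each has 2 exons. Defa29 lies on the minus strand and the other 9 on the plus strand. The last 37 codons, stop codon included, hold every cysteine codon of 9 members and those of Defa29 in part, and they are shown because they tell which members can be told apart. Capitals mark the cysteine codons (TGC or TGT), and the letters are the mm10 reference read along the coding strand.
Defa24: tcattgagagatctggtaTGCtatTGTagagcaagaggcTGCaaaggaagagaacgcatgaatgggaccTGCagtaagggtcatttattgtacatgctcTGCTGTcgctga
Defa30: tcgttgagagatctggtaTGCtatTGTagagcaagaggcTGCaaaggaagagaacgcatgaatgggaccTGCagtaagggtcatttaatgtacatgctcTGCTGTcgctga
Defa21: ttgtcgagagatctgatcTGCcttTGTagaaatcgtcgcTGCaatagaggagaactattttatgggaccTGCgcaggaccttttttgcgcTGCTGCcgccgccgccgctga
Defa22: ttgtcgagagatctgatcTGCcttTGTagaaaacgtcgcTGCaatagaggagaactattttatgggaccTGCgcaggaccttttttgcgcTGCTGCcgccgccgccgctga
Defa36: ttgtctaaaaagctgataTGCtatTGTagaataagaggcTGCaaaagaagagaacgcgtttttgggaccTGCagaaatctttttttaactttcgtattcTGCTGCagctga
Defa5: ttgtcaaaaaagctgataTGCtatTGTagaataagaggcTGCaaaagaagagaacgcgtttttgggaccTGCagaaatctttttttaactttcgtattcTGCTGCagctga
Defa20: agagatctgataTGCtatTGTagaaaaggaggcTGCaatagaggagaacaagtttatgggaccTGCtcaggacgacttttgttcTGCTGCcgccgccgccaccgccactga
Defa29: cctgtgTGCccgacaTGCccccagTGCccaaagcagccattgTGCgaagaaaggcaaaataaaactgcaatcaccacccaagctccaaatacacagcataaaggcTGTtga
Over these 111 bases, Defa5, Defa34 and Defa35 were identical and Defa36 differed from them at 1 base. Defa21 and Defa22 differed at 1 base, and Defa24 and Defa30 at 2. Defa20 had more codons after its last cysteine codon than Defa21, which shifts the sequences against each other, and differed from Defa21 at 76 of the 111 bases when aligned from the stop codon. Defa29 had 5 cysteine codons in this stretch and 11 in its whole coding sequence, against 6 and 6 in each of the other 9 members. RefSeq lists Defa29 as a cryptdin-related sequence gene.

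The libraries were made with a 3' kit, so the ends of the transcripts matter for counting. Over the last 100 bases of the annotated transcripts, Defa21 and Defa22 differed at 2 aligned positions, Defa5 and Defa34 at 2, Defa34 and Defa36 at 1, Defa24 and Defa30 at 4, and Defa20 and the non-member Defa32 at 1. Defa36 and the non-member Defa37 were identical there. Defa37 held 36 UMIs in the Paneth cells of all 4 libraries together, against 916298 for Defa36. The non-member Defa17, reported below, differed from the non-member Defa3 at 1 position and from Defa24 at 6. The split of counts between Defa21 and Defa22, among Defa5, Defa34 and Defa36, and between Defa20 and Defa32 is therefore uncertain. The same holds between Defa17 and Defa3. Sharing of reads between Defa24 and Defa30 or Defa17 was not measured. How reads that match several genes were treated is not given in the sources used here.

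Promoters were at hand for 6 of the 10 members (Defa20, Defa21, Defa22, Defa30, Defa35 and Defa36) in RefSeq annotation of GRCm38.p6. The 250 bases before the start are shown for Defa21 and Defa30, the members whose shares parted from each other in one set of libraries and not in the other, as described further on. Capitals mark ATCAAAG, the reverse complement of the TCF motif CTTTGAT. Defa21 lies at chr8:21025295-21025544 and Defa30 at chr8:21134400-21134649, both on the plus strand.
Defa21: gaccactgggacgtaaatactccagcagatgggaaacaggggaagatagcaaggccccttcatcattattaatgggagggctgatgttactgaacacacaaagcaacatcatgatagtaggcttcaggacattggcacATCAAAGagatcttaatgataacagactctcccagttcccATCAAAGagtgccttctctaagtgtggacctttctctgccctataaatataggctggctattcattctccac
Defa30: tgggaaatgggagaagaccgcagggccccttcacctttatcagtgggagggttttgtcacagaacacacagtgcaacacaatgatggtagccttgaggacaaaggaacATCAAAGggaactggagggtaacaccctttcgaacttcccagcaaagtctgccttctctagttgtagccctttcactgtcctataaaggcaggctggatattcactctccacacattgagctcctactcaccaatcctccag
The motif CTTTGAT, searched on both strands over 250 bases before and 50 after the start, was present in 6 of 6 member promoters and in 13 of 16 Defa promoters. It was present in 3.73% of all 32851 promoters of that length. Defa20, Defa21, Defa22 and Defa35 had 2 matches and Defa30 and Defa36 had 1. The related motifs CTTTGAA and CTTTGTT were in 0 of 6 member promoters, against 5.14% and 5.85% of all promoters. Over the 300 bases, the promoters of Defa21 and Defa22 were identical, and those of Defa21 and Defa30 had 65.8% identity. A match describes these letters only.

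The gate took 303, 273, 42 and 273 Paneth cells from mutant 1, mutant 2, wild type 1 and wild type 2, of 10127, 7614, 4271 and 7256 cells that passed the filters. Their share of cells was 2.99% (exact Clopper-Pearson 95% interval 2.67 to 3.34) in mutant 1 and 3.59% (3.18 to 4.03) in mutant 2, against 0.983% (0.71 to 1.33) in wild type 1 and 3.76% (3.34 to 4.23) in wild type 2. These intervals cover counting error only. The difference between genotypes was 0.916 percentage points (3.29% ± 0.42 in mutants and 2.37% ± 1.97 in wild types, SD, n = 2 each), with p = 1 in a two-sided exact permutation test that cannot go below 0.33 at this number of libraries. Within set A the difference was 2.01 points, and within set B -0.177 points. Just inside the gate, 18, 3, 0 and 39 cells had 20 to 25%, and just outside it 27, 6, 5 and 27 cells had 15 to 20%, in the same order of libraries. Pairs of libraries shared 26 to 60 barcodes.

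Markers that the gate did not use were high in the gated cells. The summed level of 7 other Paneth markers was 54502 and 44785 CPM (UMIs of a gene scaled to 1000000 UMIs of the class) in mutant Paneth cells and 65724 and 38802 CPM in wild type Paneth cells, against 650 to 826 CPM in the other cells of the 4 libraries. Itln1, a Paneth cell lectin, held the most of it, at 29568 and 24693 CPM in mutants and 35112 and 22433 CPM in wild types. Mptx1 was the exception, at or under 2.42 CPM in every library. Of 8 goblet cell markers, all were detected in gated cells, with a summed level of 12700 to 16256 CPM, and the levels of B or plasma cell, endothelial and fibroblast markers were under 1 CPM. The median depth of a gated cell was 24050 and 53376 UMIs in mutants and 90574 and 40624 UMIs in wild types.

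The gate keeps only cells rich in the UMIs of these genes, and cells with little of them count as other cells. Values in Paneth cells are therefore conditioned on the members' own level, and a genotype difference in that level, or its absence, cannot be read from them. The summed level of the 10 genes in Paneth cells was 468901 and 530871 CPM in mutants, against 477686 and 506372 CPM in wild types (499886 ± 43819 and 492029 ± 20284, SD, n = 2 each). The log2 ratio of the means was 0.02, with -0.03 within set A and 0.07 within set B. The members held 95.5% to 96.3% of the UMIs of all Defa features in Paneth cells. Among the 12 other Defa features, Defa17 alone held at least 1% of them, with 12962 and 14043 CPM in mutants and 12009 and 14298 CPM in wild types.

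Defa24 was the highest member in every library. It had 181931 and 219971 CPM in mutants, against 168445 and 245774 CPM in wild types. The lowest and the highest of the 4 values were both wild type. Defa21 followed with 90656 and 93317 CPM in mutants, against 113615 and 59104 CPM in wild types. Its near copy Defa22 had 78219 and 80283 CPM in mutants, against 92848 and 50263 CPM in wild types. For both genes the 2 mutant libraries lay close together and between the 2 wild type libraries. Defa30, the close relative of Defa24, had 62614 and 77181 CPM in mutants, against 53569 and 100158 CPM in wild types. In wild type 2 Defa30 stood above Defa21 and Defa22, and in the other 3 libraries it stood below both.

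The other 6 members were lower. Defa36 had 24472 and 26816 CPM in mutants, against 18479 and 27526 CPM in wild types. Defa29, the cryptdin-related member, had 11776 and 14384 CPM in mutants, against 13003 and 11176 CPM in wild types. Defa36 and Defa29 each overlapped between genotypes. Defa5 had 10057 and 10108 CPM in mutants, against 9465 and 7064 CPM in wild types. Defa34 had 5594 and 6043 CPM in mutants, against 4657 and 3783 CPM in wild types. Both mutants lay above both wild types for Defa5 and Defa34, which are 98.7% identical in their transcripts. Defa20 had 2441 and 1502 CPM in mutants, against 2340 and 885 CPM in wild types. Defa35 had 1141 and 1266 CPM in mutants, against 1266 and 640 CPM in wild types. Transcript lengths differed little among 9 of the members (375 to 425 bases) and Defa29 has 508, and UMIs of a 3' kit count molecules, so these CPM were compared without a length correction.

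**Figure D1:**
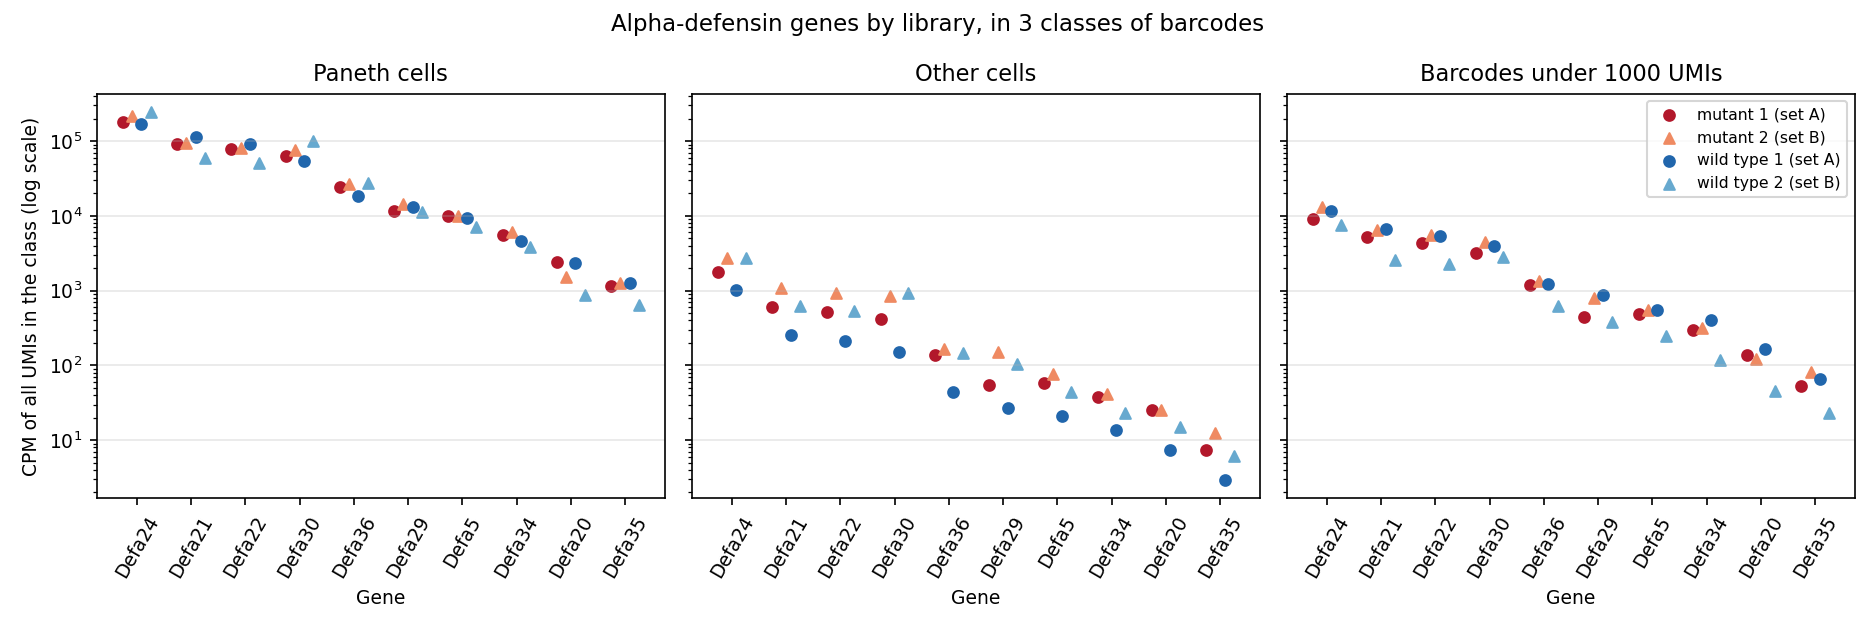
Level of each of the 10 genes in Paneth cells, other cells and barcodes under 1000 UMIs, in CPM on a log axis, with 1 point for each library. Defa24 is highest in every panel, and in other cells both mutants lie above both wild types for Defa5, Defa34, Defa20 and Defa35.

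No member passed the test between genotypes among the gated Paneth cells, a test on cells that the members' own UMIs selected. In the edgeR quasi-likelihood test with TMM normalization and Benjamini-Hochberg adjustment, calls at an adjusted p of 0.05 numbered 0 among 10800 genes (0.0% up or down). At an unadjusted p under 0.05 there were 77 genes (0.37% of all genes were higher in mutants), and 0 members. DESeq2 on the same sums called 0. When edgeR was given a set term, 2 genes passed and no member was among them (0.00926% of genes up and 0.00926% down). Of the members, 1 then had an unadjusted p under 0.05, against 1.93% of all genes in that direction: Defa34, higher in mutants. The members' log2 differences without the set term ran from -0.09 (SE 0.65, edgeR adjusted p = 1.00) for Defa30 to 0.52 (SE 0.39, edgeR adjusted p = 1.00) for Defa34. Those of Defa34 and Defa35 (0.41, SE 0.39) were larger than their errors, and those of the other members were smaller. With the set term they ran from -0.05 (SE 0.23) for Defa30 to 0.50 (SE 0.22) for Defa34.

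Within sets, 3 of 10 members were higher in the mutant of both sets (Defa5, Defa20 and Defa34), against 16.3% of all genes tested. Both mutants lay above both wild types for 2 members (Defa5 and Defa34), against 5.2% of all genes, and below both for 0 members, against 9.91%. The number lower in both sets was 0 members, against 24.5% of all genes. The other 7 members went opposite ways in the 2 sets. On the log2 scale, the mutant over the wild type was -0.33 for Defa21 within set A and 0.66 within set B. Defa22 had -0.25 and 0.68, and Defa35 had -0.15 and 0.98. Defa24 went the other way, at 0.11 within set A and -0.16 within set B, as did Defa30 at 0.23 and -0.38. On this CPM scale the median over all genes tested was 0.15 within set A and -0.18 within set B. Wild type 1 gave only 42 Paneth cells.

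In Paneth cells the shares of Defa24, Defa21 and Defa30 differed more between the wild type libraries than between genotypes. Shares here are of Defa UMIs, the UMIs of the 22 features named Defa. Alpha-defensin genes listed under other symbols, given further on, are not in this total. Defa24 made up 37.2% and 39.8% of Defa UMIs in mutant Paneth cells, against 34.0% and 46.4% in wild type ones. Defa21 made up 18.5% and 16.9% in mutants, against 22.9% and 11.2% in wild types. Defa30 made up 12.8% and 14.0% in mutants, against 10.8% and 18.9% in wild types. In each case the mutants lay between the wild types. For Defa21 that difference was 0.679 percentage points (17.7% ± 1.18 in mutants and 17.03% ± 8.31 in wild types, SD, n = 2 each). The shares of 3 members were higher in the mutant of both sets: Defa5, Defa20 and Defa34.

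Single Paneth cells differed far more than libraries did. Defa21 and Defa22 together made up a median of 34.7% and 32.5% of the Defa UMIs of a cell in mutants, against 41.8% and 11.8% in wild types. The range from the 5th to the 95th percentile was 3.35 to 46.5% in mutant 1 and 2.68 to 47.7% in mutant 2, against 2.00 to 49.1% in wild type 1 and 1.28 to 41.8% in wild type 2. Cells under 5% numbered 19 of 303 and 34 of 273 in mutants, against 3 of 42 and 90 of 273 in wild types. Wild type 2 had the largest share of such cells, and both ends of its range lay below those of the other 3 libraries. Defa24 had a median of 35.9% and 37.5% in mutants, against 32.8% and 50.9% in wild types.

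**Figure D2:**
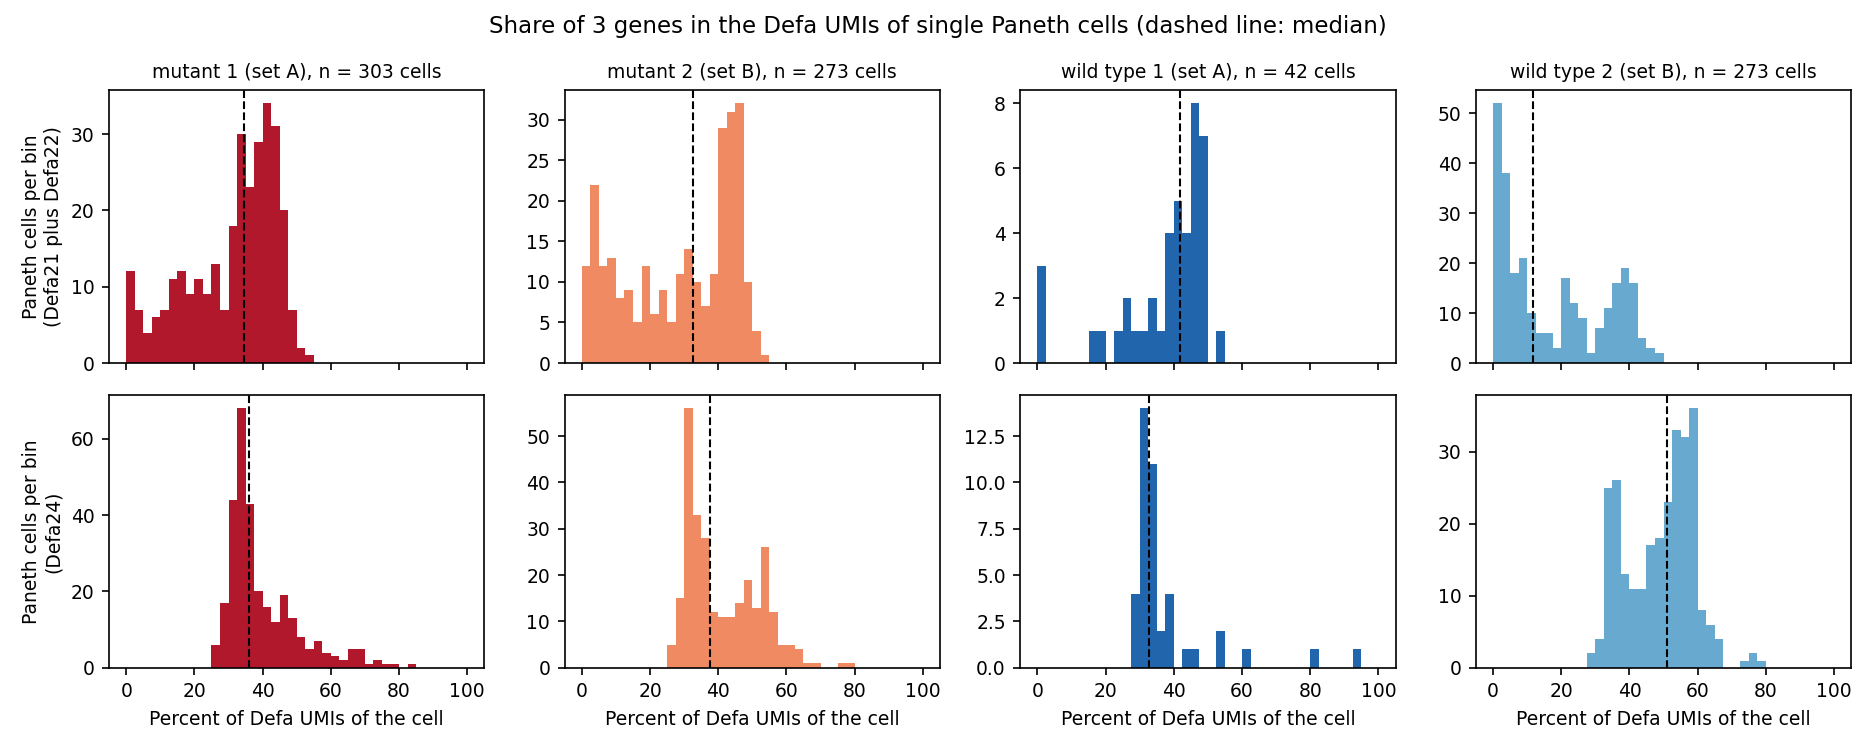
Histograms of the share of Defa UMIs held by Defa21 plus Defa22 (top) and by Defa24 (bottom) in single Paneth cells, in percent, with 1 column of panels for each library and a dashed line at the median. Cells with a Defa21 plus Defa22 share under 5% lie at the left and number 90 of 273 cells in wild type 2.

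Across single Paneth cells the members fell into a pattern of correlations, given here as a description on the log scale, over cells that share a library and differ in depth. Defa21 and Defa22 shares went together in every library (Pearson r = 0.86 and 0.93 in mutants, 0.87 and 0.94 in wild types), and near copies can share reads. Defa21 and Defa24 shares went against each other (r = -0.88 and -0.86 in mutants, -0.92 and -0.78 in wild types). Shares of a whole are tied to each other, and per UMI outside Defa genes and Lyz1 the same pair had r = 0.52 and 0.17 in mutants, against 0.49 and 0.29 in wild types. Defa24 and the non-member Defa17 shares went together (r = 0.84 and 0.85 in mutants, 0.72 and 0.81 in wild types).

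Of the 45 pairs of members, 20 had a positive r in all 4 libraries and 7 a negative one. The sign was shared within each set and opposite between the sets in 11 pairs, and shared within each genotype and opposite between genotypes in 1 pair. Defa30 carried much of the split between sets. Its share had r = 0.26 (mutant 1) and 0.67 (wild type 1) with that of Defa21 in set A, against -0.66 (mutant 2) and -0.69 (wild type 2) in set B. Defa34 did the reverse with Defa21, at -0.24 (mutant 1) and -0.18 (wild type 1) in set A and 0.63 in both libraries of set B.

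**Figure D3:**
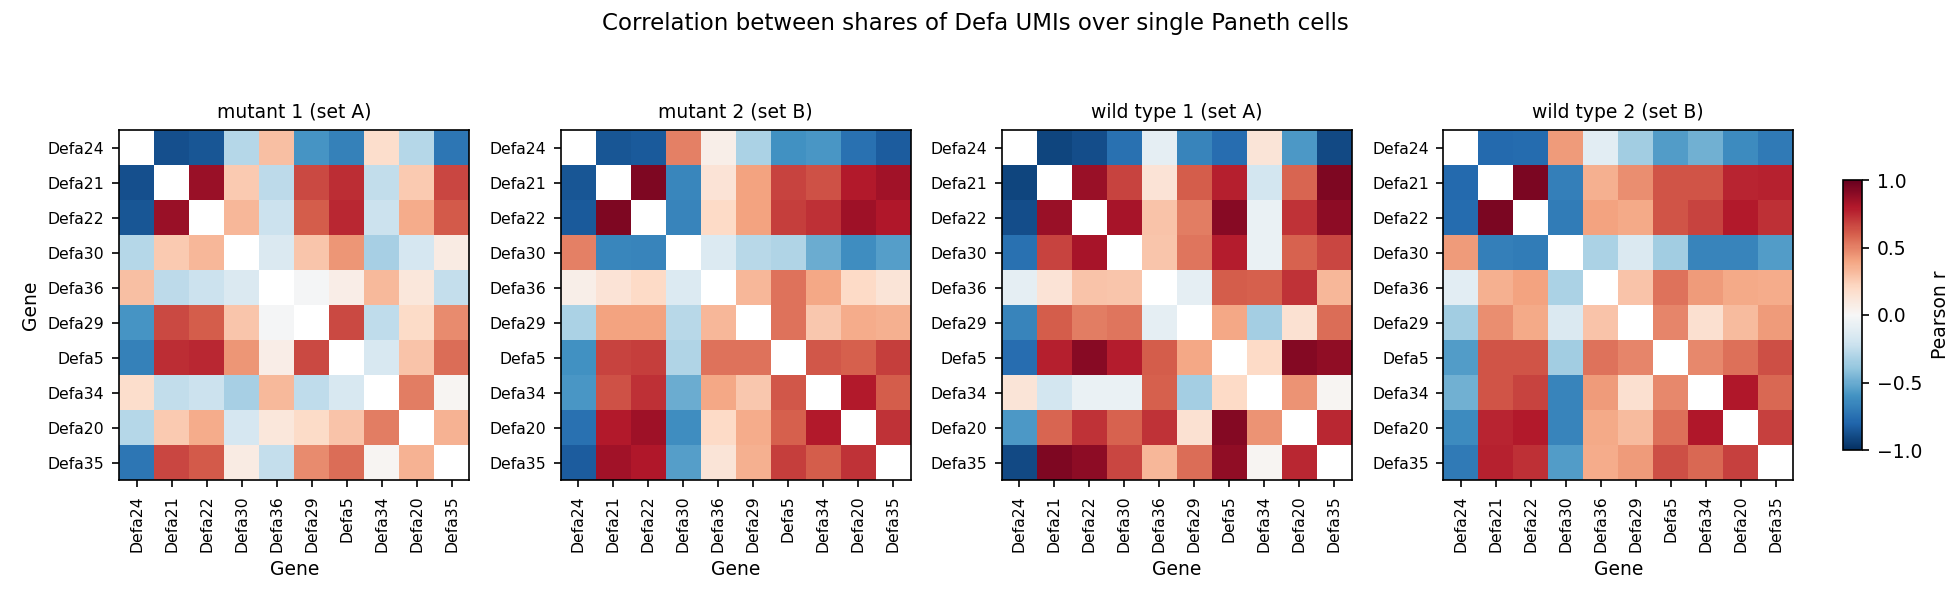
Pearson correlation between the shares of Defa UMIs of each pair of members over single Paneth cells, in 4 panels, 1 for each library, with red for positive and blue for negative values and the genes ordered by level. The row of Defa30 is red against Defa21 and Defa22 in set A and blue in set B.

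Paneth cells were next placed in 4 bands by their Defa21 plus Defa22 share, and other genes were read in each band per 1000000 UMIs outside Defa genes and Lyz1. The bands were chosen after the values were seen, so what follows is a description with no test. Nupr1, a stress-response nuclear protein, had 424 and 506 in mutant cells with a share under 5%, and 1533 and 1892 in mutant cells with 35% or more. In wild type cells it had 825 and 305 in the lowest band and 1917 and 1635 in the highest. Ang4, an antimicrobial ribonuclease, had 6672 and 13937 in the lowest band and 36781 and 27482 in the highest in mutants, and 1840 and 11797 in the lowest and 46830 and 27091 in the highest in wild types. Both genes were higher in the highest than in the lowest band in 4 of 4 libraries. Mmp7, the protease that cuts the proforms, went the other way, with 8934 and 5053 in the lowest band and 3358 and 3790 in the highest in mutants, and 6248 and 4586 in the lowest and 4176 and 4088 in the highest in wild types.

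Defa24 itself was close to level along the bands in set B. It had 543425 (mutant 2) and 595847 (wild type 2) per 1000000 UMIs outside Defa genes and Lyz1 in the lowest band, and 504745 and 600654 in the highest. In set A it had 246289 (mutant 1) and 289013 (wild type 1) in the lowest band and 381267 and 399655 in the highest. Defa30 parted the sets. In the lowest band it had 37403 (mutant 1) and 2442 (wild type 1) in set A, against 269731 (mutant 2) and 303445 (wild type 2) in set B. The cells of the lowest band also differed in other ways: goblet markers summed to 86689 (mutant 1) and 144840 (wild type 1) in set A, against 36369 (mutant 2) and 37506 (wild type 2) in set B. Their median gate share was 27.1% (mutant 1) and 29.0% (wild type 1) in set A, against 51.5% (mutant 2) and 54.9% (wild type 2) in set B. The part of goblet markers in these values was not tested. The lowest band held 19 cells in mutant 1 and 3 in wild type 1, and wild type 1 had 3 and 6 cells in the middle bands.

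**Figure D4:**
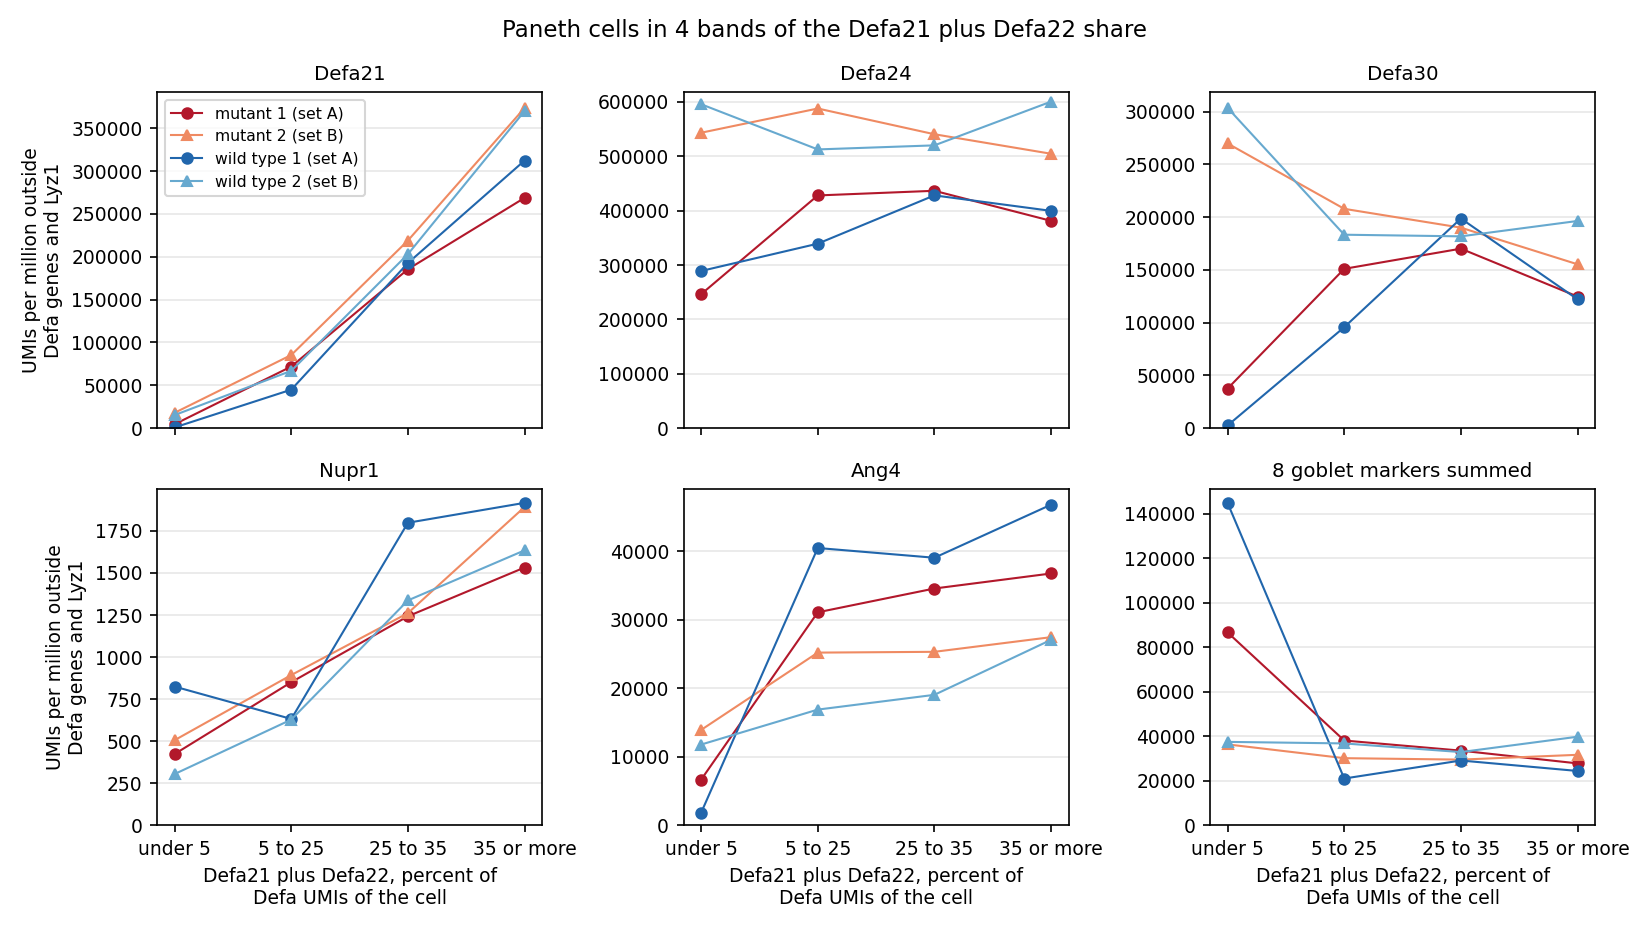
Levels in Paneth cells grouped in 4 bands of the Defa21 plus Defa22 share, per 1000000 UMIs outside Defa genes and Lyz1, with 1 line for each library and each axis starting at 0. Nupr1 and Ang4 are higher in the highest than in the lowest band in 4 of 4 libraries, and Defa30 is lowest in the lowest band in set A and highest there in set B.

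Most member UMIs of a library lay in Paneth cells: 75.7% and 79.6% in mutants, against 87.1% and 82.9% in wild types. Other cells held 7.39% and 5.18% in mutants, against 7.27% and 5.97% in wild types, and barcodes under 1000 UMIs held under 0.5% in each library. Barcodes at the gate that were called doublets held 12.9% and 12.6% in mutants, against 3.63% and 8.46% in wild types.

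The gate also bounds other cells from above, so their member levels are conditioned on the members' own UMIs as well. The counts and tests that follow carry this limit. In other cells, 9 of 10 members were higher in the mutant of both sets, against 12.8% of all genes tested, but none passed the test. The exception was Defa30, and for Defa24 the log2 ratio within set B was only 0.0037. Their summed level was 3673 and 6061 CPM in mutants, against 1741 and 5146 CPM in wild types, 0.50 as a log2 ratio of the means (1.08 within set A and 0.24 within set B). The median depth of other cells was 9320.5 and 9985 UMIs in mutants, against 20183 and 10465 UMIs in wild types. Wild type 1, the deepest, had the lowest summed level, and the part of depth in these differences was not tested. Both mutants lay above both wild types for 4 members, against 3.76% of all genes, and below both for 0 members, against 17.7%. The number lower in both sets was 0, against 40.2% of all genes. Defa5 had 59.0 and 76.2 CPM in mutants, against 21.1 and 44.8 CPM in wild types. Defa34 had 37.3 and 41.7 CPM in mutants, against 13.7 and 23.3 CPM in wild types. Defa20 had 25.5 and 25.2 CPM in mutants, against 7.47 and 15 CPM in wild types. Defa35 had 7.38 and 12.4 CPM in mutants, against 2.94 and 6.24 CPM in wild types. Of the 7 other Paneth markers, 3 were higher in the mutant of both sets in other cells (Ang4, Itln1 and Mptx2), Mptx1 was lower in both, and Mmp7, Nupr1 and Copz2 went opposite ways. Ang4 had 113 and 113 CPM in mutants, against 80.7 and 83.0 CPM in wild types, and Mmp7 had 126 and 136 CPM in mutants, against 175 and 119 CPM in wild types. Of 23 other Paneth cell products tested in other cells, 6 were higher and 3 lower in the mutant of both sets. Among the high members the genotypes overlapped: Defa24 had 1799 and 2739 CPM in mutants, against 1011 and 2732 CPM in wild types, and Defa30 had 420 and 839 CPM in mutants, against 150 and 917 CPM in wild types.

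The edgeR quasi-likelihood test without a set term called 0 of 16716 genes in other cells (0.0%), with 95 at an unadjusted p under 0.05. Among these were 3 members that were higher in mutants, against 0.239% of all genes tested: Defa34, with a log2 difference of 1.17 (SE 0.31, edgeR adjusted p = 1.00), Defa20 and Defa5. Given a set term, edgeR passed 7 genes (0.0299% up and 0.012% down) and 0 members, whose adjusted p lay between 0.0687 and 0.956. All 10 members were then higher at an unadjusted p under 0.05, against 2.54% of all genes tested. The members are close copies that can share reads. Counts of members, here and in the paragraph above, are therefore not counts of separate results. DESeq2 without a set term called 10 genes and no member. DESeq2 with the set as a term, added after the data were seen, called 20 genes higher in mutants (0.12% of those tested), among them 7 members: Defa5, Defa20, Defa21, Defa22, Defa29, Defa34 and Defa35. The same 7 of 10 were called by edgeR with the set term when the gate was set at 10% (0.0958% of genes up) or mitochondrial UMIs under 15% (0.109% up). Whether the genotype difference differs between the sets cannot be tested with 1 library for each genotype and set.

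Member UMIs were also counted in cells named as types other than Paneth cells. Other cells were clustered without Defa genes and Lyz1, and clusters were named from markers. In the T cell-like cluster, defined by Cd3e, Cd3g, Ptprc, Cd7 and Gzma, the members summed to 10559 and 9295 CPM in mutants (62 and 35 cells), against 3516 and 4534 CPM in wild types (38 and 13 cells). The stem-like cells had 3572 and 5456 CPM in mutants, against 1420 and 3706 CPM in wild types. Enterocyte-like cells had 3454 and 6333 CPM in mutants, against 1544 and 4766 CPM in wild types. With each cell thinned to 1000 UMIs, 100% of T cell-like cells in both mutants, 94.7% in wild type 1 and 100% in wild type 2 had a member UMI. The median depth of these cells was 1760 and 2674 UMIs in mutants, against 4271 and 3137 UMIs in wild types. The lowest such share among the 6 named classes other than goblet-like cells was 81.7% in mutant 1 and 99.4% in mutant 2, against 41.3% in wild type 1 and 93.9% in wild type 2, and no share was above that of the T cell-like cells. The source of the member UMIs in these classes was not tested, so these shares are not taken as a measure of expression by the cells. Member UMIs per cell ranged over the 6 classes from 19.5 to 27.6 in mutant 1 and from 30.9 to 93.6 in mutant 2, against 17.2 to 25.4 in wild type 1 and 22.2 to 66.9 in wild type 2. The classes differ in depth, as do the libraries within a class, and the part of depth in their CPM was not tested. Over all barcodes of a library the members summed to 36108 and 77211 CPM in mutants, against 19817 and 58774 CPM in wild types. The level in other cells was 10.2% and 7.85% of that in mutants, against 8.78% and 8.76% in wild types.

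In 6 named classes other than goblet-like cells, the shares of the high members in Defa UMIs spanned a few percentage points within a library. Defa24 held 35.7 to 39.9% in mutant 1 and 36.0 to 39.9% in mutant 2, against 32.5 to 39.0% in wild type 1 and 42.4 to 45.6% in wild type 2. The classes were stem-like, cycling-like, enterocyte-like, enteroendocrine-like, tuft-like and T cell-like cells. Defa21 plus Defa22 held 32.1 to 38.0% in mutant 1 and 33.0 to 38.0% in mutant 2, against 34.95 to 41.4% in wild type 1 and 23.2 to 25.5% in wild type 2. Defa17 varied more for its size, from 2.70 to 6.27% in mutant 1 and 3.27 to 4.68% in mutant 2, against 3.65 to 6.11% in wild type 1 and 2.68 to 5.96% in wild type 2. Barcodes under 1000 UMIs had Defa24 at 35.3% and 38.0% in mutants, against 35.8% and 42.9% in wild types.

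Of the 3 goblet-like clusters, cluster 0 stood farthest from those shares in every library. In this cluster, led by Agr2, Ccl9, Ccl6 and Spink4, Defa24 held 67.3% and 58.7% of Defa UMIs in mutants, against 71.9% and 70.5% in wild types. That was above the highest of the 6 other classes in 4 of 4 libraries. The Defa24 shares of goblet-like clusters 1 and 15, given below, were also above it in 4 of 4 libraries. Defa17 held 9.64% and 7.22% in cluster 0 in mutants, against 14.1% and 6.62% in wild types. Defa21 plus Defa22 held 12.2% and 18.7% there in mutants, against 7.06% and 9.71% in wild types. Without the cells in which Defa genes plus Lyz1 held 5% or more, Defa24 still held 62.1% and 50.5% in mutants, against 67.2% and 61.2% in wild types, again above the 6 other classes in 4 of 4 libraries. The summed level in cluster 0 was 8239 and 9867 CPM in mutants, against 4683 and 9049 CPM in wild types. Without the cells at 5% or more (43 and 17 in mutants, 18 and 18 in wild types) it was 5464 and 7189 CPM in mutants, against 2552 and 5674 CPM in wild types. The median over all cells of the cluster was 3505 and 5930 CPM in mutants, against 1106 and 3999 CPM in wild types. Goblet-like cluster 1, led by Dll1, Ccl9, Creb3l1 and Atoh1, had Defa24 at 50.6% and 45.6% in mutants, against 45.7% and 51.7% in wild types. Goblet-like cluster 15, led by Ido1, Fer1l6, Clca1 and Fcgbp, had Defa24 at 42.8% and 42.3% in mutants, against 40.8% and 47.7% in wild types. Of the 3 goblet-like clusters it was the closest to the 6 other classes, though above them in each library. No test was made between classes, since they share libraries.

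**Figure D5:**
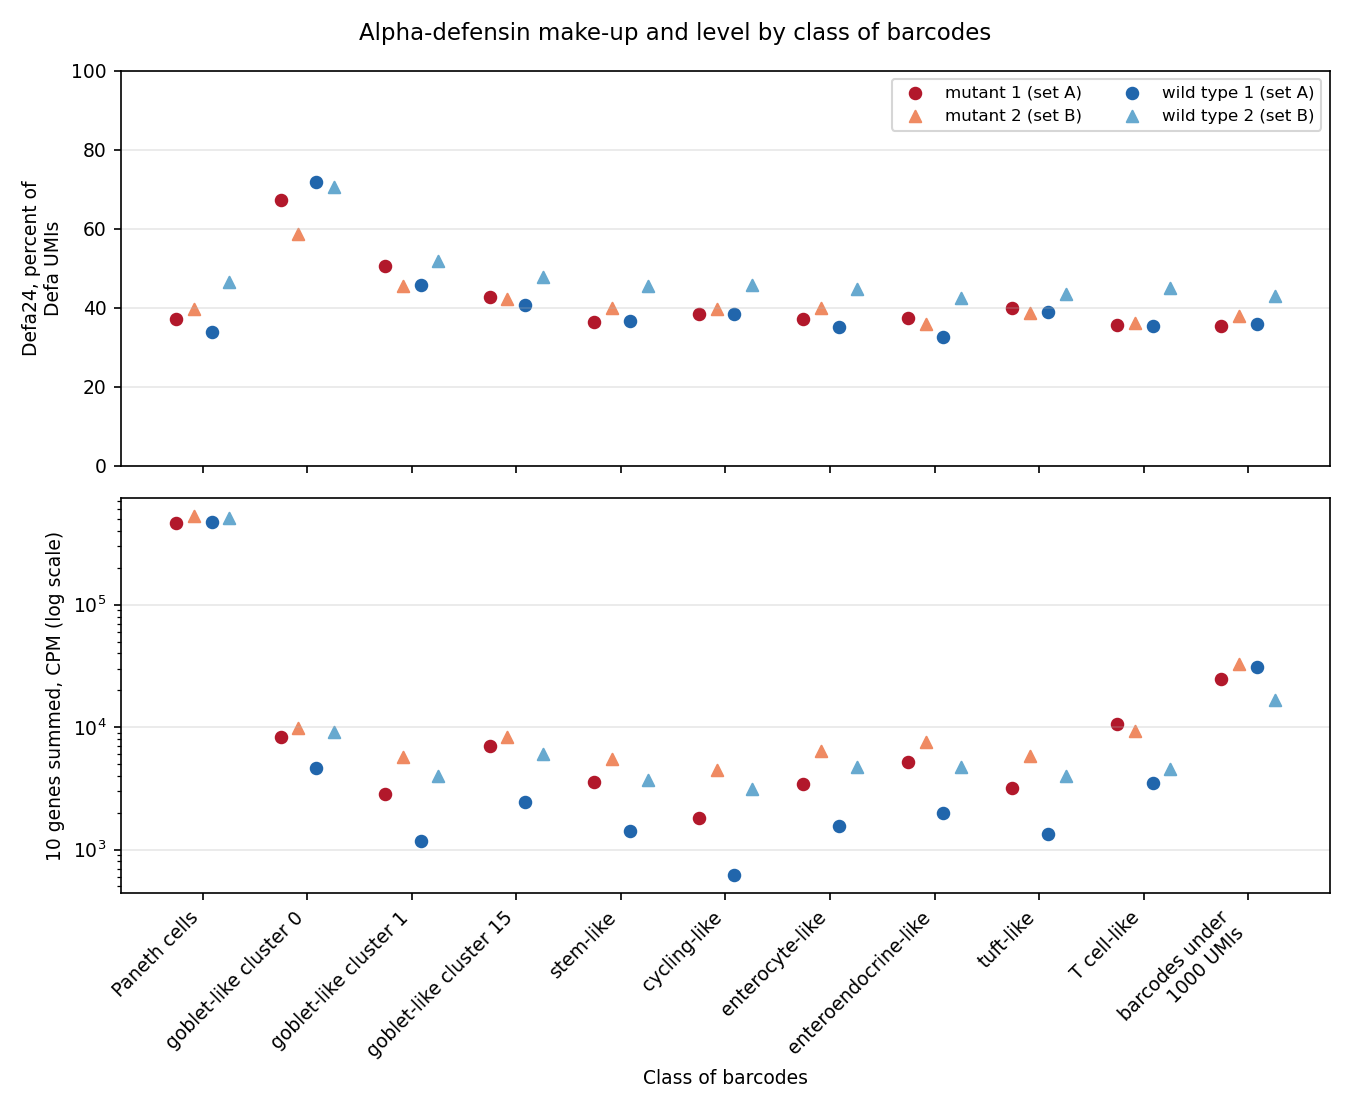
Share of Defa24 in Defa UMIs, in percent (top), and summed level of the 10 genes, in CPM on a log axis (bottom), in Paneth cells, 9 classes of other cells and barcodes under 1000 UMIs, with 1 point for each library. Defa24 is highest in goblet-like cluster 0 in 4 of 4 libraries. The T cell-like and enteroendocrine-like classes have a higher summed level in both mutants than in both wild types. The same holds for the goblet-like cluster led by Ido1, and in the other named classes the genotypes overlap. T cell-like and enteroendocrine-like cells were shallower in both mutants than in both wild types, and the part of depth was not tested. Median depth of enteroendocrine-like cells was 3445 and 5390 UMIs in mutants, against 11280 and 6536 UMIs in wild types. Member UMIs per cell overlapped between genotypes in both of these classes and in the cluster led by Ido1.

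Barcodes under 1000 UMIs numbered 986 and 1049 in mutants and 404 and 765 in wild types. The 10 genes summed to 24557 and 32854 CPM there in mutants, against 30876 and 16593 CPM in wild types, 0.27 as a log2 ratio of the means. It was -0.33 within set A and 0.99 within set B, and all 10 members went opposite ways in the 2 sets. Across members the level was a median of 5.08% and 5.90% of that in Paneth cells in mutants, against 6.67% and 3.45% in wild types, while other cells had 0.665% and 1.07% in mutants, against 0.235% and 0.961% in wild types. The median share of mitochondrial UMIs in these barcodes was 36.7% and 63.7% in mutants, against 3.61% and 31.0% in wild types, and its part in the difference was not tested.

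The ratio of Defa21 to Defa22 was close to the same in all classes. The UMIs of Defa21 over those of Defa22 were 1.16 and 1.16 in mutant Paneth cells and 1.22 and 1.18 in wild type Paneth cells. In other cells the ratio was 1.18 and 1.16 in mutants and 1.22 and 1.18 in wild types, and in barcodes under 1000 UMIs it was 1.21 and 1.15 in mutants and 1.23 and 1.14 in wild types. The ratio of Defa24 to Defa30 varied more: it was 2.91 and 2.85 in mutant Paneth cells and 3.14 and 2.45 in wild type ones, and 4.29 and 3.26 in other cells of mutants, against 6.75 and 2.98 in wild types.

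The genes most like the members in level, by Pearson correlation of log2(CPM + 1) over 12 sums (3 classes in 4 libraries, which share their libraries) among 7479 genes outside Defa and Lyz1, were Gm15293 (r = 0.998), Gm15292 (0.996), Gm7861 (0.993), Mptx2 (0.991) and Gm14851 (0.991). RefSeq names 4 of these 5 as alpha-defensin genes: Gm15293 is Defa41, Gm15292 is Defa40, Gm7861 is Defa43 and Gm14851 is Defa38. Their UMIs are not part of the gate. The gate sets the classes far apart in the members' own level, so r can be high by that alone for a gene found mainly in Paneth cells. These values of r are a description. Gm14851 had 38014 and 58931 CPM in mutant Paneth cells, against 40092 and 63568 CPM in wild type ones, above 6 of the 10 members in every library. The fifth, Mptx2, is a pentraxin made by Paneth cells, with 7151 and 7705 CPM in mutants, against 9474 and 6562 CPM in wild types.

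Other genes tied to alpha-defensins gave no call in Paneth cells. Of 21 genes for processing and granules, 18 were tested and 0 were called in either direction by edgeR, with 0 at an unadjusted p under 0.05 and a median log2 difference of -0.07, beside -0.01 for all genes. In the mutant of both sets, 11 of the 18 were lower and 3 higher, against 24.5% and 16.3% of all genes. Of 24 other Paneth cell products, 22 were tested and 0 called, with 2 higher and 4 lower in both sets. All 16 fate and Wnt regulators were tested and 0 called, with 1 higher and 5 lower in both sets. The member of the first list with the smallest p was Sdf2l1, a co-chaperone of the endoplasmic reticulum, with 184 and 95.7 CPM in mutants, against 123 and 74.1 CPM in wild types (log2 difference 0.49, SE 0.30, edgeR adjusted p = 1.00). Next by p came Ern2, a stress sensor of the endoplasmic reticulum in secretory cells, with 14.4 and 8.06 CPM in mutants, against 19.4 and 10.1 CPM in wild types, and Bhlha15, a transcription factor of secretory cells, with 14.2 and 12.3 CPM in mutants, against 16.6 and 15.2 CPM in wild types. Of the third list it was Fzd5, a Wnt receptor needed for Paneth cell maturation, with 14.4 and 8.56 CPM in mutants, against 5.82 and 8.41 CPM in wild types. Ephb3, a receptor that keeps Paneth cells at the crypt base, had 10.2 and 8.13 CPM in mutants, against 11.9 and 13.2 CPM in wild types, with both mutants below both wild types. The second list gave Defb1, a beta-defensin, with 9.67 and 5.88 CPM in mutants, against 7.49 and 4.62 CPM in wild types.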

How the data were processed

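UMI counts per feature and barcode were used as deposited. Per the file headers Cell Ranger made them, in version 7.0.0 for set A and version 7.1.0 for set B, and the genome build was mm10 per the submitters' processing notes. The kit was a 10x 3' kit per the labels' protocols. A barcode was kept as a cell from 500 genes and 1000 UMIs upward where mitochondrial UMIs stayed below 30%, and scrublet calls (scanpy 1.11.5, expected rate 0.8% per 1000 barcodes) were removed. UMIs were summed per library and class and tested with edgeR 4.0.16 (quasi-likelihood, TMM, R 4.3.3) with mutants against wild types, n = 2 each. Calls used a Benjamini-Hochberg adjusted p of 0.05. DESeq2 1.42.0, a set term, other gates and filters, and each library left out were alternatives. Replicate numbers were given in accession order and coincide with the sets (1 is set A, 2 is set B), so the set term is also a block on that number. The sets differ in the sex named in titles and in the Cell Ranger version, and nothing else is said of them. CPM is per 1000000 UMIs of a class. Other cells were clustered by Leiden (igraph 0.11.9, resolution 1.0, 2000 variable genes, 50 components, 15 neighbours) without Defa and other alpha-defensin genes, Lyz1, mitochondrial, ribosomal protein and sex-linked genes. A cluster was named from 3 or more markers of 1 type among its 50 leading genes. It stayed unnamed where another type had as many, where its 10 leading genes by fold held more markers of another type, or where they held none of its own and its median depth in a library was under 1 in 3 of that library's. The last condition left the largest cluster (3445 cells, 3 enterocyte markers) unnamed.

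The members, gene lists and markers were chosen with earlier results of these data known. Named are all 10 members, other Defa features with at least 1% of Defa UMIs, up to 4 genes per list by smallest p, and the 5 most like genes. The tests were tried on simulated counts with known changes and a dispersion fixed in advance. That dispersion was not taken from these libraries, so nothing about the members is read from the simulation. Coding tails come from GENCODE transcripts and promoters from RefSeq.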

Additional observations from a re-analysis of the deposited data

How the results depend on the processing

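With the set as a replicate block, edgeR called 2 genes in Paneth cells and 7 in other cells, against 0 and 0 without it, and no member in either. In Paneth cells the count was 2 with no filter on low counts. With the block it was 1 with library size outside Defa genes and Lyz1, 9 with the gate at 10%, 1 with the gate at 30%, 5 with doublets kept, 1 under 15% and 2 under 50% mitochondrial UMIs. In other cells it was 10 by DESeq2 and 27 by DESeq2 with the block. With the block and edgeR it was 2 with library size outside Defa genes and Lyz1, 22 with the gate at 10%, 2 with the gate at 30% and 26 under 15% mitochondrial UMIs. The block combined with another setting was chosen after seeing the data. It called 7 members in other cells at the 10% gate and 7 under 15% mitochondrial UMIs, and 0 with doublets kept, the 30% gate, the Lyz1 gate, under 50% mitochondrial UMIs or library size outside Defa genes and Lyz1.

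In Paneth cells the log2 difference turned with doublets kept for Defa21 (-0.072), Defa22 (-0.018), Defa24 (-0.22), Defa29 (-0.022) and Defa36 (-0.0199). For Defa24 it was -0.036 with library size outside Defa genes and Lyz1, -0.079 with the gate at 30% and -0.064 with a gate on Lyz1 alone at 2%. For Defa30 it was 0.0096 with the gate at 10%, and in other cells -0.31 with the Lyz1 gate. The cause was not tested.

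Leaving out 1 library at a time, the log2 difference in Paneth cells ranged from -0.19 to 1.08 for Defa20, -0.19 to 0.62 for Defa21, -0.11 to 0.64 for Defa22, -0.43 to 0.39 for Defa24, -0.26 to 0.51 for Defa29, -0.55 to 0.52 for Defa30 and -0.15 to 0.60 for Defa36. In other cells it ranged from -0.20 to 1.31 for Defa24, -0.26 to 2.10 for Defa29 and -0.47 to 2.22 for Defa30. The summed level in other cells ranged from -0.081 (without wild type 1) to 1.48 (without wild type 2). In barcodes under 1000 UMIs it ranged from -0.11 (without wild type 2) to 0.79 (without wild type 1), and it was -0.33 within set A and 0.99 within set B. The Paneth cell share ranged from -0.474 points (without wild type 1) to 2.31 points (without wild type 2). The members' shares under other gates and filters, 60 values, kept within 1 SD pooled over the genotypes, which is wide at n = 2. For the 40 values with 1 library left out this outcome was fixed in advance. With n = 2 such a shift cannot exceed that SD, so nothing is read from it. A cut at 500 UMIs could not be run, since 0 barcodes lay under it.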

Other observations

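An unnamed cluster of 124 other cells, led by Samd5, Thsd7a and Sntb1, held the Paneth markers Mmp7, Ang4, Itln1 and Mptx2 among its 50 leading genes. Its cells were shallow, with a median of 2143 and 2869 UMIs in mutants, against 4242 and 3128 UMIs in wild types. The 10 genes summed to 50812 and 81450 CPM there in mutants (47 and 31 cells), against 73906 and 91931 CPM in wild types (12 and 34 cells). Another unnamed cluster of 143 cells was led by AY761184, Defa30, Defa36 and Defa24 and carried 7 goblet markers. Its summed level was 95974 and 4494 CPM in mutants (16 and 46 cells), against 1575 and 67779 CPM in wild types (2 and 79 cells), and mutants and wild types overlapped.

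The share of Defa21 in Defa UMIs also differed between Paneth cells grouped by how much of the cell the gate genes filled. In cells with a gate share of 60% or more it was 20.4% and 21.8% in mutants, against 24.7% and 18.1% in wild types. In cells at 20 to 40% it was 13.3% and 7.22% in mutants (62 and 15 cells), against 2.28% and 8.52% in wild types (5 and 79 cells). Between these, at 40 to 60%, it was 17.1% and 10.96% in mutants, against 21.6% and 4.28% in wild types, so wild type 2 was lowest in the middle group (113 cells).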
